A study of Mus musculus with 45 samples.

Results

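Mouse chromosome 13 was examined in DNA of 45 primary mammary tumors from 8 genetically engineered models by array comparative genomic hybridization, in which tumor and reference DNA are labelled with different dyes and hybridized to the same array. Its members were all array probes placed on chromosome 13 of the mm8 build, except the spots of 3 gene names. They came to 1655 probes of 42227 on the autosomes and chromosome X. The probes lie between bases 3489596 and 120604804 with a median spacing of 28628.5 bases, the widest gap being 2742389 bases, and 1379 of them carry one of 787 gene or transcript names. The level of the chromosome in a tumor is the mean log2 ratio of its probes, where 0 is the median of all autosomal probes of that array. With a scatter of single probes of 0.158 to 0.475 between arrays, this mean had a standard error over probes of 0.00387 to 0.0117.

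The groups were BRCA1-/-;p53+/- tumors (labelled BRCA1fl/fl;p53+/-;MMTV-cre, n = 5), p53-/- tumors (p53fl/fl;MMTV-cre, grown as transplants, n = 6), C3(1)-Tag tumors (C3(1)/SV40 T/t-antigens, n = 5), and tumors of MMTV-Her2/neu (n = 5), MMTV-HRas (labelled MMTV-H-Ras, n = 5), MMTV-Wnt1 (n = 5), MMTV-PyMT (n = 9) and MMTV-Myc mice (labelled MMTV-c-Myc, n = 5). MMTV is a viral promoter active mainly in mammary epithelium, which in the first 2 models drives the Cre recombinase that deletes the floxed gene and in the last 5 drives an oncogene. All tumors came from female mice. Strain and age are not given in the sources used here, and every tumor was hybridized against reference DNA that the labels call pooled spleen in their source and extraction fields and normal mammary tissue in another field.

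Whole chromosomes are gained or lost when they are missegregated in mitosis, whereas part of a chromosome changes copy after a break, and the place of the break shows which genes moved together. Mouse chromosome 13 carries the telomerase gene Tert, the mitotic cyclin gene Ccnb1, the kinase gene Map3k1, the Hedgehog receptor gene Ptch1 and its transcription factor gene Gli3, the mammary growth factor gene Fgf10, a cluster of histone genes, and clusters of prolactin-like, serpin and vomeronasal receptor genes. In DNA of a bulk tumor, a change present in some tumor cells and a change in all of them diluted by normal cells cannot be told apart.

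The chromosome also carries microRNA genes, short RNAs that repress messenger RNAs paired with bases 2 to 8 of their own sequence. The RefSeq table used here (GRCm38.p6) holds 32 microRNA hairpins of this chromosome, besides 2 genes given by a mature sequence alone that were not placed, and the 32 were placed between genes of the array, through the 412 of 787 array names that matched RefSeq. They are shown because the only large break of the chromosome, described below for the tumor Brcap53_682, left 23 of them on its proximal, gained side and 9 on its distal, lost side. The following mature sequences, chosen after the values were seen, run 5′ to 3′ with the seed in capitals. The let-7 genes lie between Zfp169 and Barx1 on the minus strand and share a seed, miR-27b and miR-24 lie between Fbp1 and Fancc on the plus strand, and these are proximal. The distal ones are miR-9, between Mef2c and Tmem161b, and miR-449a and miR-449c, which share a seed and lie between Dhx29 and Gzma, all on the plus strand.
mmu-let-7a-5p: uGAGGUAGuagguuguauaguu
mmu-let-7d-5p: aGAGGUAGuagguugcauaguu
mmu-let-7f-5p: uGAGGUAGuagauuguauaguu
mmu-miR-27b-3p: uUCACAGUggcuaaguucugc
mmu-miR-24-3p: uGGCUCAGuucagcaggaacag
mmu-miR-9-5p: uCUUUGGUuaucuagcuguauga
mmu-miR-449a-5p: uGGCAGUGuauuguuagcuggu
mmu-miR-449c-5p: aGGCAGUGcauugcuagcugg

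The sign of every value below rests on the dyes. The labels give Cy5 to the tumor, but 740 of 755 filtered intervals of the deposited interval table had the opposite sign of the Cy5 over Cy3 ratio of their array, 14 of 15 on chromosome 13, and 1 of the Brca1 probes was higher in Cy5 by 3.97 ± 1.4 (log2, SD, n = 5) in BRCA1-/-;p53+/- tumors while the other was lower by a log2 ratio of -0.39. All ratios are therefore given as Cy3 over Cy5, and read as labelled every loss below would be a gain. On each array the median signal was 3.67 to 16.7 times background in Cy3 and 2.09 to 14.4 times in Cy5. Outside chromosome 13, the arrays of C3TAg_5RPT (C3(1)-Tag) and H2N53 (MMTV-Her2/neu) correlated at 0.957 over 1952 bins of 1 Mb. Those of C3TAg_7RPT and H2N61 correlated at 0.930. These were the highest of all pairs, with 0.835 for the next. In Wnt_4635 the Wnt1 probe had a log2 ratio of 0.07, against at least 1.07 in the other 4 MMTV-Wnt1 tumors. Results were computed with and without these 5 arrays.

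Loss of chromosome 13 was found in 8 of 45 tumors (17.8%, exact Clopper-Pearson 95% interval 8.0% to 32.1%), and in 7 of them it covered at least 95% of the probes. It occurred in 2 tumors of each of 4 models and in no tumor of the other 4. These counts and their intervals take C3TAg_5RPT and H2N53, whose profiles are nearly the same, as independent tumors. Without them the lost tumor was C3TAg_8_RPT alone in C3(1)-Tag and H2N1 alone in MMTV-Her2/neu. The models with losses were BRCA1-/-;p53+/- (2 of 5, interval 5.27% to 85.3%), p53-/- (2 of 6, 4.33% to 77.7%), C3(1)-Tag (2 of 5) and MMTV-Her2/neu (2 of 5). The models without were MMTV-HRas, MMTV-Wnt1 and MMTV-Myc (0 of 5 each, which allows up to 52.2%) and MMTV-PyMT (0 of 9, up to 33.6%). A gain was found in 1 tumor (2.22%, 0.0563% to 11.8%), the same Brcap53_682 whose other part was lost. By the intervals in the deposited table, 5 tumors were lost and 5 gained, with Brca_54, C3TAg_5RPT and C3TAg_8_RPT not lost and Brca_14, P53_1573, P53_8546 and Wnt_4635 gained over nearly the whole chromosome. A tumor counted as lost or gained where at least 10% of the probes lay in segments with a mean log2 ratio of at most -0.2 or at least 0.2.

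The wholly lost chromosomes had mean log2 ratios of -0.28 in Brca_54, -0.30 in P53_2979, -0.34 in P53_5817, -0.38 in C3TAg_5RPT, -0.34 in C3TAg_8_RPT, -0.39 in H2N1 and -0.40 in H2N53. The 37 tumors that were neither gained nor lost ranged from -0.16 to 0.16, a separation that the threshold itself sets. With the density peak of an array as its centre, the 7 lost tumors ranged from -0.51 to -0.15 and overlapped the 37, which ranged from -0.16 to 0.19. By the median of the probes in place of the mean the lost tumors ranged from -0.41 to -0.25, and P53_5809, which was not lost, was at -0.27. Among those 37, 4 tumors were below -0.1 and 5 above 0.1.

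**Figure D1:**
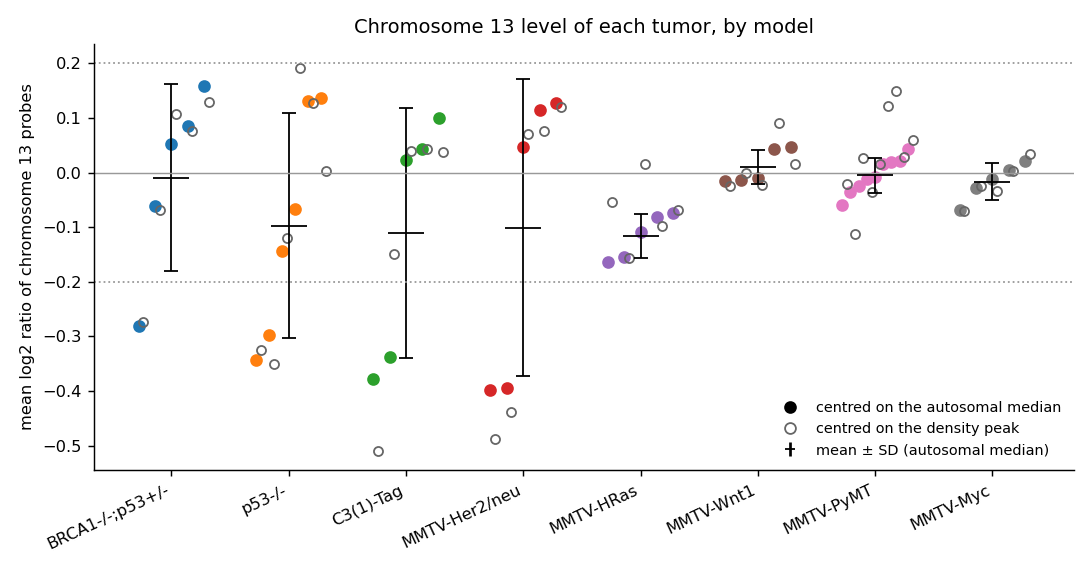
Mean log2 ratio of the 1655 chromosome 13 probes in each tumor, by model on the horizontal axis. Filled points were centred on the autosomal median and open points on the density peak of the same array, dotted lines mark -0.2 and 0.2, and black bars are model means with SD. Among the filled points the 7 wholly lost tumors sit between -0.40 and -0.28 in 4 models, and all 5 MMTV-HRas tumors sit below 0, while the open point of Hras_An3_3 is at 0.016.

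Within models the tumors did not lose the chromosome together. In the BRCA1-/-;p53+/- model the levels were -0.06 in Brcap53_503, 0.05 in Brcap53_682, 0.16 in Brca_14, 0.08 in Brca_42 and -0.28 in Brca_54. In the p53-/- model they were -0.07 in P53_1573, -0.30 in P53_2979, -0.14 in P53_5809, -0.34 in P53_5817, 0.13 in P53_5851 and 0.14 in P53_8546. In C3(1)-Tag tumors they were 0.04 in C3TAg2, 0.02 in C3TAg4, -0.38 in C3TAg_5RPT, 0.10 in C3TAg_7RPT and -0.34 in C3TAg_8_RPT. Each of these models thus held tumors on both sides of 0. In MMTV-Her2/neu tumors the levels were -0.39 in H2N1, -0.40 in H2N53, 0.13 in H2N61, 0.05 in H2N64 and 0.11 in H2NA, with no tumor in between. In MMTV-HRas tumors they were -0.08, -0.16, -0.07, -0.11 and -0.15, all below 0 and none as low as -0.2, though with the density peak as centre Hras_An3_3 was at 0.016. The tumors of the remaining models lay within -0.07 and 0.05, from -0.02 to 0.05 in MMTV-Wnt1, from -0.06 to 0.04 in MMTV-PyMT and from -0.07 to 0.02 in MMTV-Myc.

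The models did not separate by their means, which were -0.01 ± 0.17 (SD, n = 5) in BRCA1-/-;p53+/-, -0.10 ± 0.21 (n = 6) in p53-/-, -0.11 ± 0.23 (n = 5) in C3(1)-Tag, -0.10 ± 0.27 (n = 5) in MMTV-Her2/neu, -0.12 ± 0.04 (n = 5) in MMTV-HRas, 0.01 ± 0.03 (n = 5) in MMTV-Wnt1, 0.00 ± 0.03 (n = 9) in MMTV-PyMT and -0.02 ± 0.03 (n = 5) in MMTV-Myc. The difference between a model and the other tumors ran from -0.07 in MMTV-HRas to 0.07 in MMTV-Wnt1, and no adjusted p of the two-sided exact permutation test was under 0.587 over the 8 models. The counts of lost tumors did not separate the models either, with adjusted p of 0.422 to 0.568 by two-sided Fisher's exact test. Without the 4 arrays with nearly the same profiles, 6 tumors were lost. Within slides that held both C3(1)-Tag and other tumors the C3(1)-Tag difference was 0.08 (exact permutation p = 0.5) in place of -0.07, and the 1 scan day that held MMTV-HRas and other tumors had a single MMTV-HRas tumor, 0.06 above the mean of 4 others, where no exact p under 0.2 is possible.

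The centre of the ratios moved the level by over 0.1 in 8 of the 45 tumors. Centred on the density peak instead of the median, C3TAg_8_RPT, in which 83.6% of the probes of the other autosomes lay in altered segments, moved from -0.34 to -0.15 and was no longer lost, and P53_1573, with 80.3% altered, moved from -0.07 to 0.19. In the 8 tumors with under 1% of the other autosomes altered, where the choice of centre matters little, chromosome 13 lay between -0.03 and 0.04.

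Across the autosomes, chromosome 13 was lost in 8 tumors and gained in 1 by the segments computed here, and lost and gained in 5 each by the deposited intervals. With the computed segments, tumors with a loss numbered 1 to 16 on the other 18 autosomes (median 5), and 3 of them, chromosomes 7, 10 and 12 with 13, 16 and 11 tumors, were lost more often than chromosome 13. Gains on the other autosomes numbered 1 to 19 tumors (median 9), and 17 of 18 were gained in more tumors than chromosome 13. By the deposited intervals the other autosomes were lost in 0 to 8 tumors (median 2) and gained in 2 to 20 (median 9). Elsewhere 242 pairs of tumor and chromosome were altered, 143 of them (59.1%) over the whole chromosome, against 7 of 8 tumors here. The altered share of chromosome 13 was 18.4% ± 38.4 (SD, n = 45) of its probes, against 24.4% ± 24.8 on the other autosomes of the same tumors, a difference of -5.95 percentage points that did not pass a two-sided sign-flip permutation test (p = 0.231, higher in 10 of 45 tumors).

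**Figure D2:**
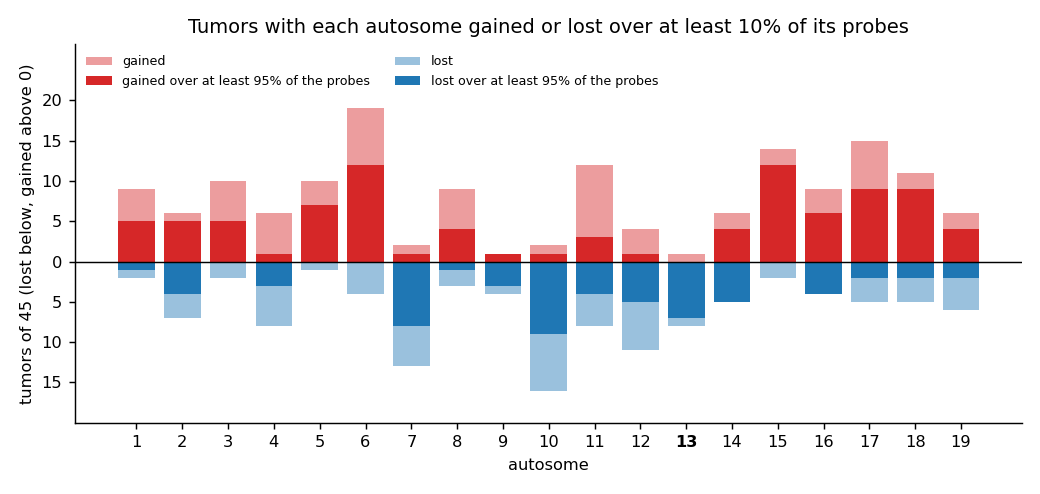
Number of the 45 tumors with each autosome gained (above 0, red) or lost (below 0, blue) over at least 10% of its probes, with the dark part of a bar for changes over at least 95%. Chromosome 13, in bold, had 8 tumors lost, 7 of them wholly, and 1 gained.

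A break that divided the chromosome into large gained and lost parts was found in a single tumor, Brcap53_682 of the BRCA1-/-;p53+/- model. Its proximal 1060 probes, over 71.7 Mb, had a mean log2 ratio of 0.27, and its distal 548 probes, over 45.4 Mb, had one of -0.38. The step lay between the probe ending at 75157520, named Arts1, and the probe starting at 75223467, named Cast, 65946 bases apart. Arts1 is a gene of an aminopeptidase that trims antigenic peptides, and Cast that of the calpain inhibitor calpastatin. The proximal minus the distal mean was 0.65 in this tumor and -0.08 to 0.04 (median -0.02) in the other 44. The boundary of this measure is the breakpoint of Brcap53_682 itself, so a break elsewhere would show less in it.

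**Figure D3:**
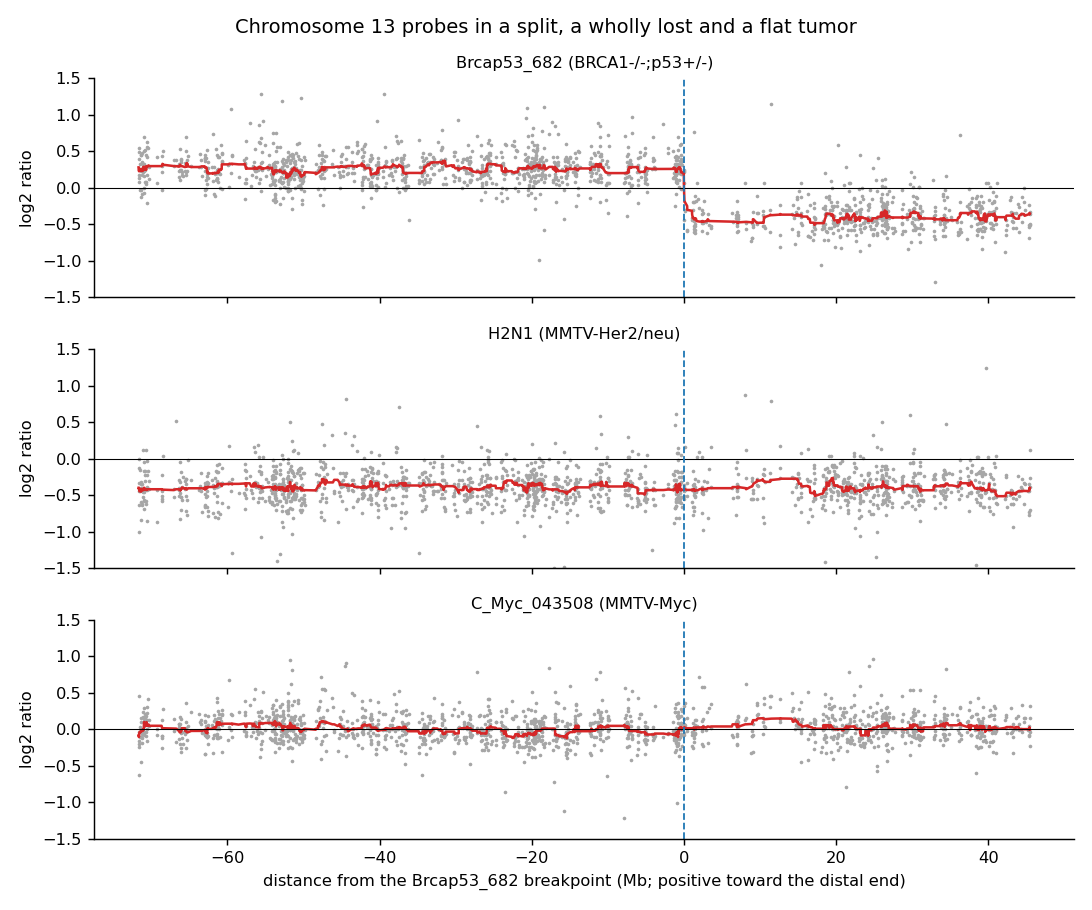
Log2 ratio of single chromosome 13 probes (grey) and their running median (red) against distance from the Brcap53_682 breakpoint (dashed), in a split tumor, a wholly lost tumor and a tumor near 0; points beyond the axis are not drawn. The median of Brcap53_682 steps from above to below 0 at the breakpoint, H2N1 stays near its mean of -0.39, and C_Myc_043508 near 0.02.

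The listed genes, whose probes are among those that set the step, followed it. All 29 measured genes proximal of it were above 0 in Brcap53_682 and all 16 distal ones below 0. Proximal values included 0.25 for Tert, 0.14 for Ptch1, 0.28 for Dek, which encodes a chromatin protein, and 0.59 for Smad5, which transmits BMP signals. Distal values included -0.45 for Map3k1, -0.52 for the mismatch repair gene Msh3, -0.53 for the cytokine receptor gene Il6st and -0.23 for Ccnb1. At the microRNA loci, the median of the probes from one flanking gene to the next was 0.22 at the let-7 cluster (8 probes) and 0.26 at the miR-27b and miR-24 cluster (9 probes), against -0.50 at miR-9 (10 probes) and -0.31 at the miR-449 cluster (8 probes).

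In the 7 wholly lost tumors these loci were all below 0, and 3 of the 4 overlapped the 37 tumors neither gained nor lost. The let-7 locus ranged from -0.44 to -0.15, against -0.25 to 0.23 in the 37. The miR-27b and miR-24 locus ranged from -0.67 to -0.09, against -0.60 to 0.20. The miR-9 locus, which did not overlap, ranged from -0.46 to -0.33, against -0.18 to 0.25. The miR-449 locus ranged from -0.50 to -0.21, against -0.24 to 0.09. The highest value of the lost tumors was that of Brca_54 at let-7 and at miR-27b and miR-24, and P53_5809, which was not lost, had the -0.60. Of the 45 listed genes with probes, the growth factor genes Fgf10 and Inhba, the receptor genes Ntrk2, Ror2 and F2r, the adaptor gene Nedd9, Tert, the chromatin regulator gene Jarid2 and the homeobox genes Msx2 and Isl1 were at or under -0.2 in all 7 tumors. Tert ranged from -0.61 to -0.22 there and from -0.39 to 0.31 in the 37 tumors neither gained nor lost. Fgf10 ranged from -0.70 to -0.26 in the lost tumors and from -0.43 to 0.46 in the 37. Foxc1, a forkhead factor gene, was at -0.11 to 0.84 in the lost tumors, and it alone was at or under -0.2 in 0 of them. Other listed genes were also above 0 in some lost tumors, such as Gli3 (up to 0.85), Nkd2 (0.68), Pitx1 (0.54), Irf4 (0.52) and Klf6 (0.43). A single gene has 1 to a few probes, and for each of the 45 genes the lost tumors and the 37 overlapped.

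**Figure D4:**
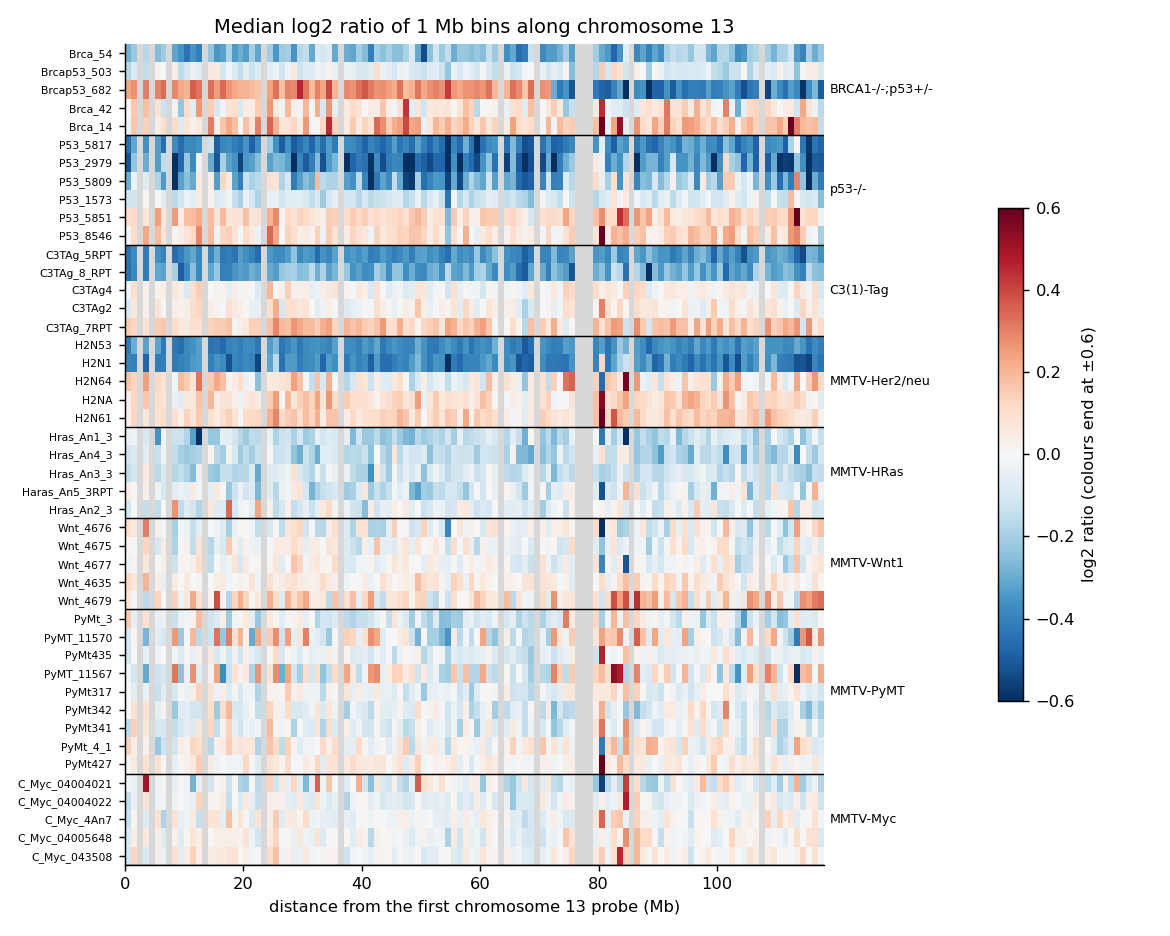
Median log2 ratio of the 1 Mb bins along chromosome 13 (horizontal axis, distance from the first probe) in the 45 tumors (rows, grouped by model and ordered by level), red above and blue below 0, grey without enough probes. The 7 wholly lost tumors are blue from end to end, and Brcap53_682 turns from red to blue at its breakpoint.

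A model was also compared with the mean of the other 7 in each 1 Mb bin, by limma over all 2057 autosomal bins of which 105 lie on chromosome 13. In p53-/- tumors 2 of the 105 bins passed an adjusted p of 0.05, both lower, against 7.1% of all autosomal bins in either direction and 4.81% lower. The bin from 57 to 58 Mb, with 5 probes in and around Spock1, an extracellular proteoglycan gene, was at -0.44, -0.65, -0.55, -0.73, -0.26 and -0.24 in the 6 tumors. Its difference from the other models was -0.38 (SE 0.08, limma adjusted p = 0.00428), with a model mean of -0.48 ± 0.20 (SD, n = 6), though the other tumors reached -0.62 in H2N1. The bin from 120 to 121 Mb, with 9 probes named for Nnt, AK019581, Paip1 and 4833420G17Rik, was at -0.26, -0.50, -0.42, -0.48, -0.04 and -0.20 in the same tumors, with a difference of -0.23 (SE 0.07, limma adjusted p = 0.0493). Both groups overlapped in both bins, and 2 of the 6 p53-/- tumors had lost the whole chromosome. Nnt encodes a mitochondrial transhydrogenase and Paip1 a translation factor.

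In the other 7 models 0 of 105 bins passed by limma, and 6 bins of BRCA1-/-;p53+/-, 5 of MMTV-Wnt1, 1 of MMTV-HRas, 1 of MMTV-Myc and 0 of C3(1)-Tag, MMTV-Her2/neu and MMTV-PyMT had an unadjusted p under 0.05. Of all autosomal bins, 17.8% were called in MMTV-HRas, 2.72% in MMTV-PyMT, 2.48% in BRCA1-/-;p53+/-, 0.438% in MMTV-Myc, 0.0486% in MMTV-Wnt1 and 0% in C3(1)-Tag and MMTV-Her2/neu. A moderated F over the 8 models called the same 2 bins of chromosome 13, against 19.4% of all bins. These counts depended on the settings. The number of called p53-/- bins was 1 with the density peak as centre, with loess, with 5 probes per bin and with scan day as a block, and it moved by over 1.5 times in 35 of the 45 fits that left out 1 tumor. With array quality weights limma called 91 of the 105 bins in MMTV-Her2/neu, 17 in MMTV-Myc, 16 in MMTV-Wnt1, 6 in MMTV-PyMT and 0 in p53-/-. The shares of all autosomal bins above are without weights, so these counts cannot be set against them.

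Among the 45 listed genes, those called by limma over all 20191 autosomal gene names were in the p53-/- comparison, where 4 passed, 3 higher and 1 lower, against 16.7% of all names, 9.0% higher and 7.67% lower. Higher were Smad5 (difference 0.43, SE 0.10, limma adjusted p = 0.00252), Nkd2, an inhibitor of Wnt signalling (0.53, SE 0.16, adjusted p = 0.0205), and Gli3 (0.52, SE 0.18, adjusted p = 0.0389). Bmp6, a bone morphogenetic protein gene, was lower (-0.50, SE 0.12, adjusted p = 0.00464). With array weights, and with slide or scan day as a block, 2 listed genes passed in place of 4, and all 6 p53-/- arrays lay on 2 slides that held no other model. Each difference rested on few probes of the gene. For Smad5 1 of 2 probes had a p53-/- mean of 1.13 relative to the chromosome median and the other -0.08. For Nkd2 1 of 4 probes had 2.70, and the other 3 lay within -0.03 and 0.04. For Bmp6 1 of 3 probes had -1.67, and the others 0.12 and 0.23, whereas for Gli3 both probes were high, at 0.87 and 0.79.

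The 6 p53-/- tumors differed among themselves at these genes. Smad5 was at 0.47, -0.10, 0.23, 0.25, 0.64 and 0.68. Bmp6 was at -1.14, 0.05, 0.22, -1.21, -0.93 and -0.60, so that P53_2979 and P53_5809 did not share the low Bmp6 values of the other 4. The probe scatter of P53_2979 and P53_5809 was 0.448 and 0.475, against 0.197 to 0.268 in the other 4. Gli3 was at 0.39, 0.85, 1.00, 0.45, 0.51 and 0.81, above 0 in all 6, and from -0.61 to 1.08 (median 0.15) in the other 39 tumors. By role, 0 of 14 cell cycle and DNA maintenance genes passed in any model, 1 of 10 growth factors and receptors (Bmp6), 2 of 8 genes of a signalling list of inhibitors, kinases and other transducers (Nkd2 and Smad5) and 1 of 13 transcription and chromatin regulators (Gli3). The median p53-/- difference was 0.00, -0.21, -0.07 and 0.07 in these lists. No listed gene passed in the other 7 comparisons, in which 4.64% of all gene names were called for MMTV-HRas, 5.21% for BRCA1-/-;p53+/-, 0.674% for MMTV-Myc, 0.495% for MMTV-PyMT, 0.0842% for MMTV-Wnt1, 0.0297% for MMTV-Her2/neu and 0.00495% for C3(1)-Tag. In those 7 comparisons between 1 (MMTV-Her2/neu and MMTV-Myc) and 5 (MMTV-Wnt1) listed genes had an unadjusted p under 0.05 by limma. With array weights 8 listed genes passed in MMTV-Wnt1.

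Apart from the break of Brcap53_682 and 1 in P53_1573, breakpoints of chromosome 13 bounded short segments. In all, 180 breakpoints were found in 27 tumors, where a breakpoint is a border between segments whose means differ by at least 0.2. The number was 11 with normexp background correction and 15 by the deposited intervals, so the counts below hold for the deposited log ratio and these settings. Only 2 of the 180 had segments of at least 20 probes on both sides, the one in Brcap53_682 and that at 116277886 in P53_1573. With shorter segments left out and their neighbours joined there were 4, the same 2, 1 more in P53_1573 and 1 in P53_5851. Of 93 segments with under 20 probes, 71 had just 5, and 41 rested on at most 1 probe that lay 0.5 or more from the chromosome median. All breakpoints came to 10.9 per 100 probes here and to 12.5 on the other autosomes. With shorter segments left out these rates were 0.242 and 0.928.

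Breakpoints per tumor were 9.83 ± 8.68 (SD, n = 6) in p53-/-, 9.6 ± 10.71 (n = 5) in MMTV-Her2/neu, 4.60 ± 2.19 (n = 5) in BRCA1-/-;p53+/-, 3.56 ± 3.28 (n = 9) in MMTV-PyMT, 2.40 ± 3.29 (n = 5) in MMTV-Wnt1, 0.8 ± 1.1 (n = 5) in MMTV-HRas and 0.4 ± 0.894 (n = 5) in C3(1)-Tag tumors. MMTV-Myc tumors had 0 in all 5. In p53-/- there were 6.73 breakpoints per tumor more than in the others (exact permutation adjusted p = 0.106, unadjusted p = 0.0132). In MMTV-Her2/neu there were 6.30 more (adjusted p = 0.132, unadjusted p = 0.0331 by the same exact permutation test). Neither difference passed an adjusted p of 0.05. Without the short segments resting on 1 probe the p53-/- difference was 4.33 (exact permutation adjusted p = 0.0404) and that of MMTV-Her2/neu turned to -0.73, and by the deposited intervals the p53-/- difference was 1.54 (adjusted p = 0.00755 by the same exact test). The p53-/- tumors had 9, 0, 2, 18, 22 and 8 breakpoints, and the MMTV-Her2/neu tumors 4, 24, 2, 0 and 18. In p53-/-, the 0 and 2 belonged to P53_2979 and P53_5809, the arrays with the highest probe scatter of that model (0.448 and 0.475). The split statistic is divided by the scatter of the array, so a larger step is needed there. Without the 4 arrays with nearly the same profiles the p53-/- difference was 7.12 (exact permutation adjusted p = 0.0373).

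Breakpoints recurred in 26 bins of 1 Mb. The most shared were 115 to 116 Mb with breakpoints of 11 tumors, 59 to 60 Mb and 114 to 115 Mb with 10 each, and 82 to 83 Mb and 95 to 96 Mb with 7 each. The probes beside these borders are named for Arl15, Fst, Mocs2, Gzma, Hspb3 and Snag1 at 114 to 116 Mb, for Agtpbp1, Ntrk2, Hbld2 and Zcchc6 at 59 to 60 Mb, for Cetn3 at 82 to 83 Mb and for Ap3b1, Otp, S71494 and Tbca at 95 to 96 Mb. Fst encodes the activin antagonist follistatin and Ntrk2 a neurotrophin receptor. All 7 short segments at 95 to 96 Mb, 7 of 10 at 59 to 60 Mb and 3 of 7 at 82 to 83 Mb rested on at most 1 probe that lay 0.5 or more from the chromosome median. The borders at 114 to 116 Mb bound one short interval in 9 tumors.

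That interval, from 114867700 to 115258904 (391 kb, 5 probes named for AK028014 and Arl15, a gene of the ARF-like GTPase family), moved in opposite directions between tumors. Relative to the chromosome median, the p53-/- tumors were at 2.35, 0.36, 0.24, 2.87, 2.69 and 2.58, and Brca_14 at 1.83 and Brca_54 at 0.88. PyMT_11567 was at -1.81, PyMT_11570 at -1.59 and Wnt_4679 at -1.88, which are all the arrays of 1 slide and of its scan day. The p53-/- model thus held 4 high tumors and a pair near the other models. The pair, P53_2979 and P53_5809, had the highest probe scatter of the model, 0.448 and 0.475 against 0.197 to 0.268. The part of array quality in this difference was not tested. Of the 225 values, 67 were not well above background in a channel, and with normexp background correction the p53-/- mean fell from 1.85 to 0.45, and PyMT_11567, PyMT_11570 and Wnt_4679 were at -0.65, -0.01 and -0.78. The part of dim signals in this interval was not tested further.

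A second interval, from 116083299 to 116277886 (195 kb, 5 probes), covers Itga1, the collagen-binding integrin alpha 1 gene, and was high in p53-/- tumors by a similar amount under both background corrections. Their arrays lay on 2 slides of their own, so slide and model cannot be told apart here. Relative to the chromosome median the 6 tumors were at 0.63, 0.45, 0.70, 0.89, 0.93 and 0.67, a mean of 0.71 ± 0.18 (SD, n = 6), and 0.69 with normexp. In the other tumors the highest value was 0.55 in Brca_14 and the lowest -0.46 in Brcap53_682, whose distal side is lost. Only Brca_14 reached the range of the p53-/- tumors. The probe at 116277829, next to the Itga1 probes, was at 1.94, 1.47, 1.69, 1.96, 1.98 and 1.73 in the p53-/- tumors, and its highest value elsewhere was 1.26. The Itga1 probe at 116098475 was at 0.94, 0.99, 0.95, 0.96, 1.34 and 1.06, with 1.01 in PyMt341 as the highest elsewhere, while the other 3 probes had p53-/- means of 0.11 to 0.38. The interval was chosen for its values, which are given as a description, and 2 of its 225 values were not well above background.

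**Figure D5:**
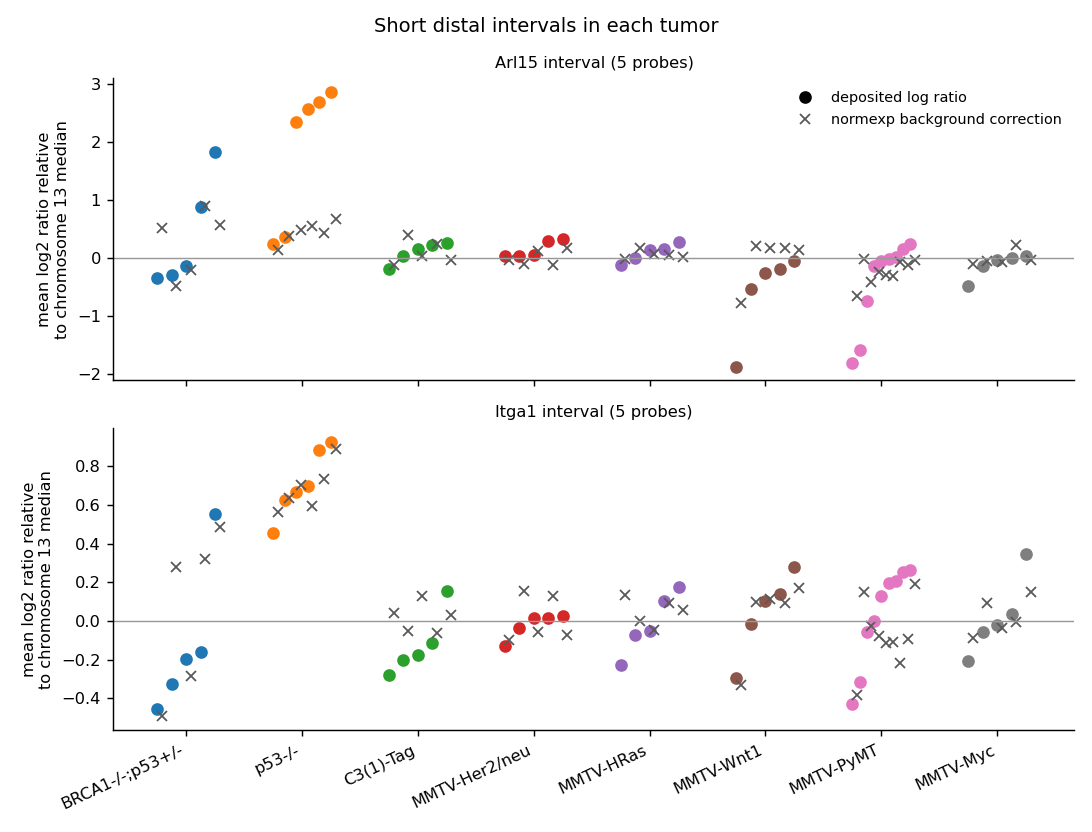
Mean log2 ratio of the 5 probes of the Arl15 interval (top) and of the Itga1 interval (bottom) relative to the chromosome 13 median of the same tumor, by model. Points use the deposited log ratio and crosses normexp background correction. In the top panel p53-/- points up to 2.87 come down to crosses of at most 0.68, and in the bottom panel points and crosses of the 6 p53-/- tumors stay at or above 0.45.

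Further short intervals stood apart in 1 or a few tumors, of which a few are given here as examples. Around Actn2, the alpha-actinin 2 gene, 8 probes from 12238568 to 12439473 were at -1.22 in Brca_14 and -1.28 in Brca_42, against -0.45 in Brca_54 as the next lowest, and with normexp at -0.56 and -0.52. These 3 arrays made up 1 slide and 1 scan day, and the remaining BRCA1-/-;p53+/- tumors, on other slides, were at -0.22 and 0.07. Around Dok3, an adaptor gene of immune cell signalling, 6 probes from 55514277 to 55549002 were at -1.78 in H2N53 and at -1.0 with normexp. The next lowest was Brca_14, at -0.55. From Cartpt to Smn1, the survival of motor neuron gene, 11 probes from 100999683 to 101227264 were at -0.39 in H2NA and at -0.50 with normexp. Brcap53_682, whose distal side is lost, was at -0.39 there too. Around Zfp369 and Uqcrb, a gene of the mitochondrial respiratory chain, 7 probes from 65197672 to 67340679 were at -1.58 in PyMT_11570 and at -0.40 with normexp, and Wnt_4679 and PyMT_11567 of the same slide were at -0.51 each, while Brca_42 was at 0.69. From Ly86 to Ssr1, 8 probes from 37411377 to 37999554 were at 0.36 to 0.70 in the 6 p53-/- tumors, a range that PyMt342 at 0.58, H2NA at 0.51 and others shared, and the p53-/- mean fell from 0.53 to 0.27 with normexp.

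Single probes also stood apart from their neighbours. Of 1655 probes, 410 were at least 1 from the chromosome median on the log2 scale in some tumor, 151 in at least 3 tumors and 27 in at least 10. The 151 split into 44 that were higher, 30 that were lower and 77 that were higher in some tumors and lower in others, and for 146 of them the neighbours lay within 0.5. The 8 probes beyond 1 in at least 15 tumors were 1 of the 4 Nkd2 probes and an unnamed probe at 83217891 (22 tumors each, 12 higher and 10 lower), 1 of the Irf4 probes (19), Ankrd55 (17), BC023150 and AK019632 (16 each), and Rps23 and S71494 (15 each). S71494 was lower in all 15 and BC023150 lower in 13 of 16. These values came to 1264 (1.70% of all), of which 11.4% were not well above background in a channel against 0.995% of all values, and to 646 (0.868%) with normexp. They numbered 1 in Wnt_4635 and 138 in P53_5809, with a median of 54.5 in p53-/-, 54 in BRCA1-/-;p53+/- and 4 in MMTV-Myc tumors. The scatter of single probes was the lowest of all arrays in Wnt_4635 (0.158) and the highest in P53_5809 (0.475). The part of array scatter in these counts was not tested.

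In the gene clusters of the chromosome, 11 of 55 names had a value at least 1 above the chromosome median in some tumor and 6 a value at least 1 below it, against 9.15% and 10.3% of all 787 names. The counts of single families are small and are given as a description. Of 5 histone names, 3 had a value at least 1 above the chromosome median in some tumor and 1 a value at least 1 below it, with Hist1h2bg higher in 4 tumors and Hist1h1e lower in 4. Of 12 prolactin family names 3 had such high and 3 such low values, and Prlpc4 was higher in 8 tumors, up to 1.74 in Brca_42. The serpin B family, with 10 names, had 1 name in each direction, Serpinb6c, from -1.23 to 1.25. The vomeronasal receptors (10 names), the aldo-keto reductases (7) and the placental cathepsins (7) each had 1 name with a high value and 0 with a low one, the highest being 1.94 for Ctsl, a general lysosomal protease, in Brcap53_682. The Naip family, with 3 names, stayed within -0.60 and 0.71, and the granzyme gene Gzma, with 1 probe, ran from -1.44 to 1.04 and was lower by at least 1 in 5 tumors. Members of such families are similar in sequence. Probe sequences were not checked, so whether a probe also takes signal from paralogs was not tested.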

How the data were processed

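DNA of 45 tumors was hybridized with reference DNA to Agilent 44K arrays, 18 slides scanned on 10 days, and arrays were grouped by the model in the labels. The authors deposited scanner tables on mm8 from Agilent Feature Extraction, whose version is 9.5.1.1 by the headers and 10.7 by the submitters' notes. The deposited intensity of a spot had been corrected for background and dye by that program, and the deposited log10 ratio is Cy5 over Cy3. The authors also deposited intervals called by an aberration detection method, each with a mean log2 ratio and a number of probes, used here as an alternative, while their 8 tables of single models were not used. Another column of that deposited table holds the authors' p-values, also not used. The table had 0 columns of other samples.

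The log10 ratio was turned into log2 of Cy3 over Cy5, control and outlier spots were left out, spots of a probe were averaged, and each array was centred on the median of its 40658 autosomal probes. Segments came from circular binary segmentation (Python 3.11.15, numpy 2.4.6, numba 0.67.0; split statistic over 6, at least 5 probes), checked on simulated data. Bins needed 3 probes. Limma 3.58.1 (R 4.3.3) fitted medians of bins and means of gene names over all 45 tumors, with Benjamini-Hochberg adjustment over all of them. Models were compared by exact permutation, Fisher's exact test and 100000 sign flips (scipy 1.17.1). Each tumor has 1 array, nothing says how the DNA was sampled within a tumor, and arrays give no counts, so that their number limits the precision. Alternatives covered centring, background correction, loess, dim probes, outlier spots, dye direction, thresholds, segmentation, batches, weights and tumors left out.

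The members and gene lists were chosen with earlier results of these data known. Named were the genes of these lists, genes of called bins, of recurrent breakpoints, of segments with a mean of at least 1 in size, of single probes beyond 1 in 3 or more tumors, and family members.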

Additional observations from a re-analysis of the deposited data

Results flagged for a closer look

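In 32 groups of tumors (4 measures in each of the 8 models), 5 values stood far from the other tumors of their model by Dixon's gap test, and chance flags about 1 in 20 groups, a rate that does not apply to the first 2 values below. The proximal minus distal log2 ratio of Brcap53_682 was 0.65, against 0.01 for the nearest BRCA1-/-;p53+/- tumor, but the boundary of that measure is the breakpoint of Brcap53_682 itself. C3TAg_8_RPT had 2 breakpoints and the other C3(1)-Tag tumors 0, where any count above 0 stands apart. Wnt_4679 had 8 breakpoints, against 2 in the nearest MMTV-Wnt1 tumor, and 38 probes at least 1 in size, against 9. C_Myc_04004021 had 77 such probes, against 7 in the nearest MMTV-Myc tumor. Both arrays had the highest probe scatter of their model. It was 0.444 in C_Myc_04004021, against 0.173 to 0.222 in the other MMTV-Myc arrays. In Wnt_4679, the only MMTV-Wnt1 array on its slide, it was 0.35, against at most 0.305 in the other MMTV-Wnt1 arrays. The part of array scatter and slide in these flags was not tested.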

How the results depend on the processing

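No paired analysis was possible because replicate numbers only follow the order of the samples. With the dyes as labelled the differences of the model means turned to -0.048 (BRCA1-/-;p53+/-), 0.052 (p53-/-), 0.066 (C3(1)-Tag), 0.055 (MMTV-Her2/neu), 0.072 (MMTV-HRas), -0.070 (MMTV-Wnt1), -0.059 (MMTV-PyMT) and -0.040 (MMTV-Myc), 8 tumors were gained, and 1 was lost, with 0 in p53-/-, C3(1)-Tag and MMTV-Her2/neu. Within slides the C3(1)-Tag difference was 0.076, and within scan days that of MMTV-HRas, 1 tumor against 4, was 0.061. By the deposited intervals 5 tumors were lost and 5 gained, with 0 C3(1)-Tag tumors lost, and at a threshold of 0.3 0 tumors were gained. At that threshold P53_2979, with all probes in a segment at -0.298, no longer counted as lost. Nor did Brca_54, with 1310 probes in a segment at -0.296. With the density peak as centre C3TAg_8_RPT was not lost. The 180 breakpoints became 11 with normexp, 304 and 73 with a split statistic over 5 and 8, 292 with segments of 3 probes and 15 by the deposited intervals. With the settings chosen after seeing the data they became 4 (segments of at least 20 probes) and 101 (without short segments resting on 1 probe), where the MMTV-Her2/neu difference turned to -0.10 and -0.73 and that of MMTV-PyMT, under the second, to 0.53. The p53-/- difference in breakpoints passed with 1.54 (deposited intervals), 4.33 (without short segments resting on 1 probe) and 7.12 (without the 4 arrays). The number of its called bins, 2, was 1 with the density peak, with loess, with 5 probes per bin, without Wnt_4635 and with scan day as a block, 4 with normexp, and 0 with 2 Mb bins and with array weights. Normexp called 1 MMTV-PyMT bin, and weights called 91 bins in MMTV-Her2/neu, 16 in MMTV-Wnt1, 6 in MMTV-PyMT and 17 in MMTV-Myc. The number of called p53-/- genes, 4, was 2 with weights and with slide or scan day as a block. Weights called 8 genes in MMTV-Wnt1, leaving out Wnt_4635 called 1 there, and normexp 1 in BRCA1-/-;p53+/-. The causes were not tested.

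Leaving out 1 tumor at a time gave differences of model means of -0.12 to 0.0016 in C3(1)-Tag (above 0 without C3TAg_5RPT) and -0.11 to 0.020 in MMTV-Her2/neu (above 0 without H2N1 or H2N53), 0 or 1 gained tumors, 4.30 to 8.70 for p53-/- breakpoints (exact permutation adjusted p 0.0279 to 0.239), -1.36 to 0.013 for MMTV-PyMT breakpoints, 1 to 12 called p53-/- bins, 2 to 11 called p53-/- genes, 0 to 1 called bins in BRCA1-/-;p53+/-, and 0 to 1 called genes in BRCA1-/-;p53+/-, MMTV-Wnt1 and MMTV-PyMT. Apart from the counts of lost tumors given above, all other results kept direction and side of the threshold under the settings run.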
